A study of Mus musculus with 16 samples.

Results

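The genes described here are stimulated by type I interferon, and they were followed in mouse ear skin made inflamed with imiquimod, with or without injections of lysophosphatidylcholine (LPC), a phospholipid with a single fatty acid. The set was a list of 37 gene symbols, given by name and with no cut on a measured value, and drawn up with earlier results of these data known. Of the 37, 35 had a row in every one of the 16 libraries, out of 19439 genes with a row in at least 1 library, and all 35 passed the filter on low counts. Mx1 and Mx2, which code for antiviral dynamin-like GTPases and which RefSeq annotates as transcribed pseudogenes on this build, were not analysed here.

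All 16 mice were BALB/c and aged 8 weeks, and imiquimod (IMQ) was applied to the ear of every one, so no group was free of it. Over the same period each ear was injected intradermally once a day, on 6 planned consecutive days, with 10 µl of either 10 mM LPC or normal saline, the vehicle. Ears were taken on day 4 or on day 7, with 4 mice in each of the 4 groups (LPC or vehicle, on either day). By that plan an ear taken on day 4 had fewer injections than one taken on day 7. Time and number of injections therefore cannot be told apart between the days. RNA was sequenced from the whole lesion, so each value is an average over the cells of the piece, and more cells of a type cannot be told apart from more RNA per cell. Total counts ran from 18704197 to 20131513 per library. Krt14, a keratin of basal keratinocytes and a marker of the labelled skin, was at 4153 to 10799 FPKM, the fragments per kilobase of transcript and per unit of sequencing depth that the authors deposited.

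Type I interferons bind a receptor built of Ifnar1 and Ifnar2, which signals through Jak1 and Tyk2 to a complex that holds Stat2 and Irf9. That complex binds a short promoter element, the interferon-stimulated response element (ISRE), and turns on genes that block viral RNA, tag proteins with Isg15, sense nucleic acids and feed back on the response through Irf7 and Usp18. Imiquimod is an agonist of Tlr7, a sensor of single-stranded RNA that can induce interferon in plasmacytoid dendritic cells and macrophages.

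The element was looked for in the RefSeq promoter windows of the members, each of 250 bases before and 50 bases after an annotated start (GRCm38.p6). A window was found for 28 of the 37 members. In 18 of the 28 it starts from the annotated 5′ end of the gene, and in the other 10 (Cmpk2, Ddx60, Ifit2, Ifit3, Irf7, Oas1a, Oas3, Oasl1, Oasl2 and Xaf1) from the start of a transcript that lies 8 to 410 bases inside it. The core searched was GAAANNGAA, read on both strands (TTCNNTTTC on the other), with overlapping matches counted. At least 1 match lay in 18 of 28 member windows (64.3%), against 1148 of 15209 windows of all genes in the files (7.55%). The share was 77.8% of the 18 windows at the 5′ end of a gene and 40.0% of the other 10, against 7.84% and 7.19% over all genes. Matches at 2 or more positions lay in 10 member windows (35.7%), against 98 of all windows (0.644%). The core of the gamma-activated site, TTCNNNGAA, which reads the same on both strands, lay in 5 of 28 member windows (17.9%) and 1119 of all (7.36%). A match is a string of letters and was not tested as a binding site.

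**Figure D1:**
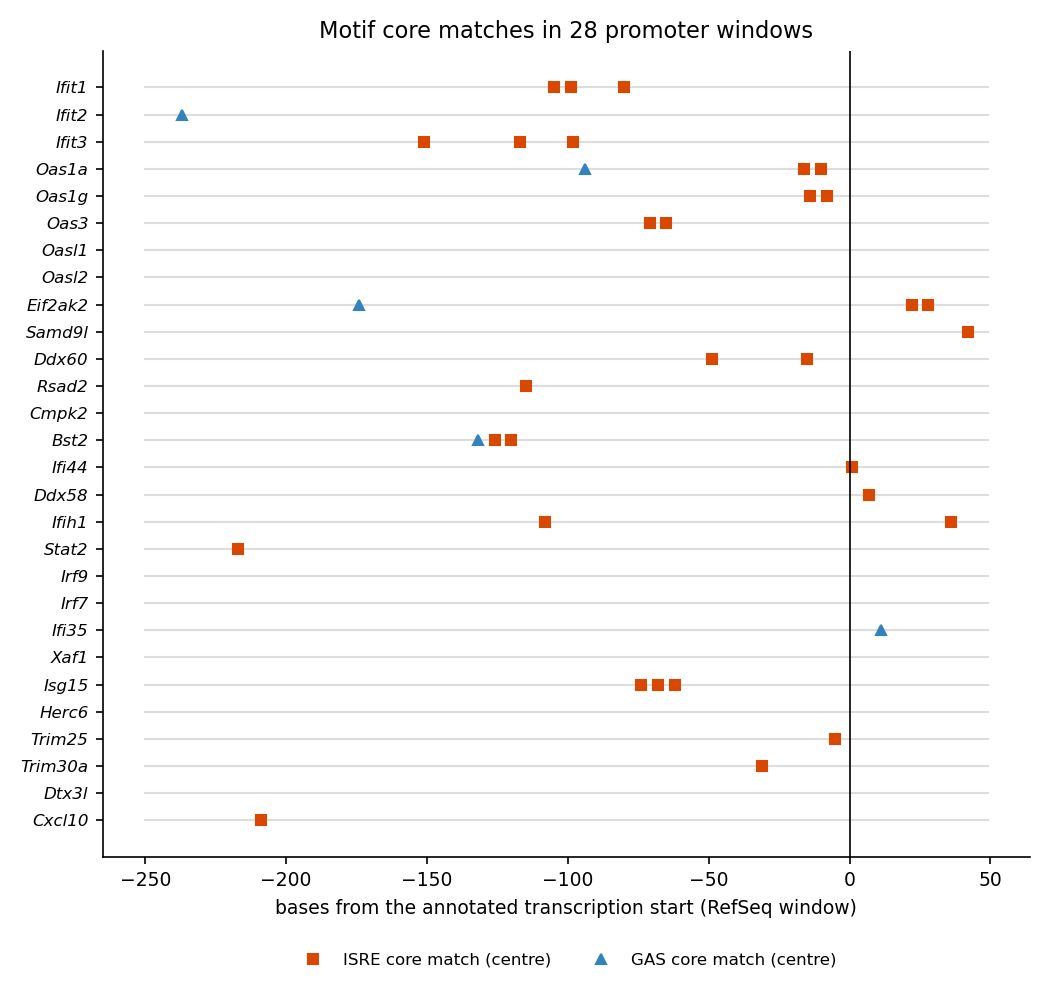
Position of each motif core match (squares, ISRE core; triangles, gamma-activated site core) along the promoter windows of 28 members, in bases from the annotated start, with one grey line per gene in the order of their roles. The ISRE core matches of Isg15, Ifit1, Ifit3, Oas3, Oas1a, Oas1g and Bst2 come in groups, while 10 genes have none in this window, among them Oasl1 and Irf7, whose windows start from 97 and 75 bases inside the gene.

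The 150 bases before the start are shown for 7 members on which the results below turn, or which make a near-identical pair, with each ISRE core match in capitals. They are Isg15 (chr4:156200819-156200968, minus strand), Oas3 (chr5:120777660-120777809, minus), Trim30a (chr7:104465194-104465343, minus), Bst2 (chr8:71537473-71537622, minus), Ifit1 (chr19:34640739-34640888, plus), Oas1a (chr5:120907526-120907675, minus) and Oas1g (chr5:120887614-120887763, minus). All are read 5′ to 3′ on the strand of the gene.
Isg15: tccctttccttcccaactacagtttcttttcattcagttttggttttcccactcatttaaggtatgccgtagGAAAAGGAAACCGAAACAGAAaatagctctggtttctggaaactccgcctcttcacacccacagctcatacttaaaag
Oas3: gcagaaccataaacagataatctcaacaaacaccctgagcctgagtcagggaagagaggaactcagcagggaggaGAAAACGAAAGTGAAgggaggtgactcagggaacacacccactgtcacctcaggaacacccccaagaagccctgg
Trim30a: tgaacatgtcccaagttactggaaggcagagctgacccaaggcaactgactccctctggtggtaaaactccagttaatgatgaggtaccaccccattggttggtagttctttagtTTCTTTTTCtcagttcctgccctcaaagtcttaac
Bst2: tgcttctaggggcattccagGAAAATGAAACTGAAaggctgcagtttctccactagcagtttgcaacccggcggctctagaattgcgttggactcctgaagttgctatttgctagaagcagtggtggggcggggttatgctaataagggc
Ifit1: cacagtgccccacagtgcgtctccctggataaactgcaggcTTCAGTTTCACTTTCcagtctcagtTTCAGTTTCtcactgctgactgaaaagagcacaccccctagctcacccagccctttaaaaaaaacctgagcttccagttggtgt
Oas1a: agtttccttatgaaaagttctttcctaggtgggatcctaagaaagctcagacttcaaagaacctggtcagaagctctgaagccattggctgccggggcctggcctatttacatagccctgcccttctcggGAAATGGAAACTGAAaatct
Oas1g: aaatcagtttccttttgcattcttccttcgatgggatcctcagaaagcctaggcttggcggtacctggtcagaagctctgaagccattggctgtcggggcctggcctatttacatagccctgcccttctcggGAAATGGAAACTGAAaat

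In Isg15, 3 overlapping matches follow each other, with first bases 78, 72 and 66 bases before the start. Oas3 has 2 overlapping matches and Bst2 likewise 2, while Trim30a has 1, on the opposite strand. Ifit1 has 3 matches on the opposite strand. The Oas1a and Oas1g stretches carry the same 2 overlapping matches next to the start. The longest coding transcripts of Oas1a and Oas1g are identical at 97.5% of 1860 aligned bases (GENCODE M21), and those of Ifit3 and Ifit3b, a neighbour that is no member, at 98.0% of 1697. Those of Trim30a and Trim30d, which is no member either, are less alike, at 86.0% of 3185. The deposited counts may split reads within such pairs, so the level of each partner is uncertain. Several members sit side by side: Oasl2 and Oasl1 are 10897 bases apart on chromosome 5, Oas2 and Oas3 3211 bases, Rsad2 and Cmpk2 12664 bases on chromosome 12, and Ifit2 and Ifit3 6584 bases on chromosome 19. Dtx3l and Parp9 on chromosome 16 overlap by 558 bases, and no source used here says whether the counting used strand, so reads in the overlap cannot be assigned to one of them.

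On day 7, all 35 members had a higher fitted level with LPC than with vehicle, with a median log2 fold change of 1.79, against 0.0189 over the 15782 genes tested. Without LPC day 7 mouse 4 the median was 1.05, and all 35 stayed positive. The lowest was Eif2ak2 (0.36), a kinase that stops translation on double-stranded RNA, and the highest Oasl1 (2.74), an inhibitor of Irf7 translation. Only 1 member, Isg15, passed the test at an adjusted p below 0.05 (edgeR's quasi-likelihood test, Benjamini-Hochberg adjustment over all genes), which is 2.86% of the members, beside 2.38% of all genes tested that rose. None fell, beside 1.44% of all genes. At an unadjusted p under 0.05, 29 of the 35 were higher with LPC and none lower, beside 11.3% and 8.47% of all genes. DESeq2 called 13 members, beside 5.97% of all genes that rose by DESeq2, and edgeR on the 8 libraries of day 7 alone called 0, beside 0.184%. The mice within each group differed widely in these genes, as the values below show.

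**Figure D2:**
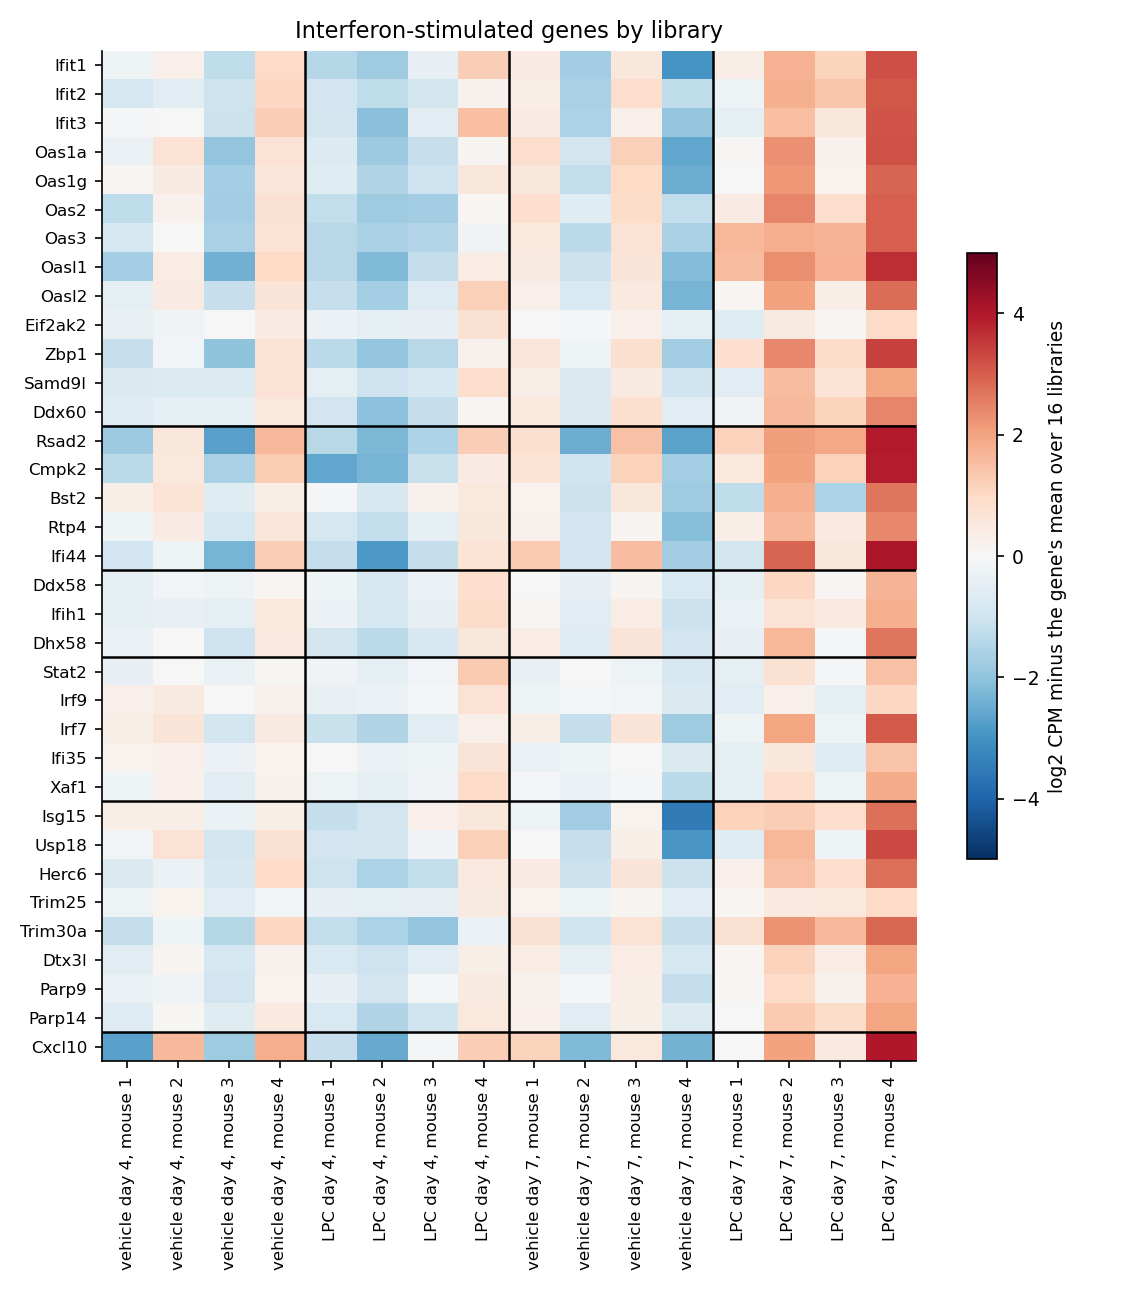
Level of 35 members (rows, ordered and divided by role) in 16 libraries (columns, divided by group), as log2 CPM (counts scaled to library size) minus the mean of the gene over all libraries. LPC day 7 mouse 4 has the highest value of the 16 libraries for 35 of 35 genes, and LPC day 7 mouse 2 lies above every vehicle day 7 mouse for 35.

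Isg15 codes for a ubiquitin-like protein that is conjugated to other proteins and also secreted. Its level was 108, 135, 103 and 379 FPKM in LPC day 7 mice 1 to 4, and 47.2, 17.9, 64.1 and 5.20 in vehicle day 7 mice 1 to 4. The lowest LPC mouse was above the highest vehicle mouse, so the groups did not overlap. The log2 fold change was 2.49 (SE 0.66) with an adjusted p of 0.0484. On day 4 the levels were 25.2, 33.1, 70.0 and 87.9 FPKM with LPC and 72.2, 73.7, 51.7 and 77.1 with vehicle, which overlapped (log2 fold change -0.32, SE 0.62, adjusted p = 0.812). The day 7 call was lost with any 1 of the 16 libraries left out. In the 8 of these fits that left out a day 7 library, the adjusted p lay between 0.0513 and 0.122. The log2 fold change in them lay between 1.87 (without LPC day 7 mouse 4) and 3.03 (without vehicle day 7 mouse 3).

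Among the genes that act on viral RNA and on translation, Oas3, which makes 2′-5′ oligoadenylates that activate RNase L, had 8.56, 11.2, 9.92 and 24.8 FPKM in LPC day 7 mice 1 to 4. Vehicle day 7 mice had 4.48, 1.30, 5.17 and 1.09, and the groups did not overlap. Its log2 fold change was 2.25 (SE 0.61), with an adjusted p of 0.0536. Oasl1 was at 11.4, 23.6, 15.0 and 58.1 FPKM with LPC on day 7, against 6.33, 2.27, 7.36 and 1.08 with vehicle, again without overlap (log2 fold change 2.74, SE 0.84, adjusted p = 0.08). For Zbp1, a sensor of Z-form nucleic acid that can start necroptosis, the LPC values were 15.7, 52.7, 17.7 and 100.2 FPKM and the vehicle values 15.8, 9.25, 17.5 and 3.27. LPC mice 1 and 3 thus had about the level of vehicle mice 1 and 3, and mice 2 and 4 stood well above them (log2 fold change 2.17, SE 0.74, adjusted p = 0.113).

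Oas2, a further oligoadenylate synthetase, followed the same order of mice: 6.13, 29.5, 9.53 and 41.4 FPKM with LPC and 9.61, 3.66, 10.4 and 2.47 with vehicle on day 7. Oasl2, the member of this role with the highest mean level, was at 15.0, 68.8, 19.99 and 108.6 FPKM with LPC and 19.5, 10.1, 22.6 and 3.5 with vehicle. For Ifit2, an interferon-induced protein with tetratricopeptide repeats, the values were 2.45, 11.8, 8.79 and 28.7 FPKM with LPC and 4.21, 1.12, 6.13 and 1.49 with vehicle. In each of these genes the LPC and vehicle mice overlapped, and the adjusted p was 0.171 for Oas2, 0.162 for Oasl2 and 0.121 for Ifit2. Ddx60, a helicase linked to RNA sensing, was low throughout: 1.01, 4.38, 2.87 and 7.44 FPKM with LPC and 2.00, 0.87, 2.40 and 1.08 with vehicle on day 7. The remaining 6 members of this role were Ifit1, Ifit3, Oas1a, Oas1g, Samd9l and Eif2ak2. Their log2 fold changes ran from 0.36 (Eif2ak2) to 2.32 (Ifit1), and none of the 13 of this role passed the test.

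Bst2 (tetherin), which holds budding virus at the cell surface, was the most abundant effector of membranes and nucleotides. Its level was 19.4, 190.8, 17.6 and 342.4 FPKM in LPC day 7 mice 1 to 4, against 61.8, 26.9, 81.2 and 17.4 in vehicle day 7 mice. LPC mice 1 and 3 lay at the low end of the vehicle range and mice 2 and 4 above all of it (log2 fold change 1.64, SE 0.77, adjusted p = 0.252). Rtp4, a receptor transporter protein with antiviral action, was at 16.1, 47.0, 20.3 and 79.0 FPKM with LPC and 17.2, 7.90, 16.6 and 3.54 with vehicle, with the smallest unadjusted p of this role (0.0056; adjusted p = 0.0833). Cmpk2, a mitochondrial nucleotide kinase next to Rsad2 in the genome, was at 2.28, 7.64, 3.98 and 27.9 FPKM with LPC and 2.93, 0.92, 4.04 and 0.60 with vehicle. Across the 5 genes of this role, which also holds Rsad2 (viperin) and Ifi44, the log2 fold change ran from 1.64 to 2.42.

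The 3 cytosolic RNA sensors of the RIG-I family differed less between the groups, with log2 fold changes from 1.06 to 1.5. Dhx58 (LGP2), a regulator of the other 2, was at 3.67, 18.4, 5.33 and 35.7 FPKM with LPC and 7.28, 3.88, 8.79 and 3.19 with vehicle on day 7. Ddx58 (RIG-I) itself was at 4.14, 14.2, 6.96 and 21.6 FPKM with LPC and 6.68, 5.29, 7.34 and 4.31 with vehicle (log2 fold change 1.06, SE 0.42, adjusted p = 0.173). In both, LPC mice 1 and 3 were below the highest vehicle mouse.

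Of the signal transducers, Irf7, the factor that amplifies interferon production, had the highest mean level of the 35 members (89.3 FPKM over 16 libraries). In LPC day 7 mice 1 to 4 it was at 41.6, 231.5, 46.8 and 467.3 FPKM, against 69.5, 25.7, 88.5 and 17.7 with vehicle (log2 fold change 2.01, SE 0.73, adjusted p = 0.136). LPC mice 1 and 3 were again inside the vehicle range. Stat2 and Irf9, which act in the signalling complex below the receptor, gave smaller differences, with log2 fold changes of 0.93 (SE 0.42) for Stat2 and 0.50 (SE 0.32) for Irf9.

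The 7 members that accompany Isg15 in its role are enzymes of its conjugation and removal and further ubiquitin or ADP-ribose enzymes. Usp18, which strips Isg15 from proteins and damps receptor signalling, gave 2.37 (SE 0.86) on the log2 scale and an adjusted p of 0.134. Herc6, the ligase that attaches Isg15 in mouse, was at 1.57, 4.40, 2.76 and 10.4 FPKM with LPC and 2.07, 0.75, 2.41 and 0.78 with vehicle. Trim30a was at 5.02, 17.1, 10.5 and 25.1 FPKM with LPC and 5.98, 1.82, 5.71 and 1.70 with vehicle, so only LPC mouse 1 lay within the vehicle range. For Parp14 the values were 4.24, 12.8, 9.23 and 19.5 FPKM with LPC and 5.95, 3.62, 6.19 and 3.40 with vehicle, and for its genomic neighbour Dtx3l 3.84, 9.64, 5.27 and 16.4 against 5.41, 3.25, 5.49 and 2.52. The single chemokine, Cxcl10, a ligand of Cxcr3, was at 3.41, 16.2, 5.42 and 62.3 FPKM with LPC and 8.58, 0.81, 5.67 and 0.76 with vehicle (log2 fold change 2.50, SE 1.2, adjusted p = 0.265).

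**Figure D3:**
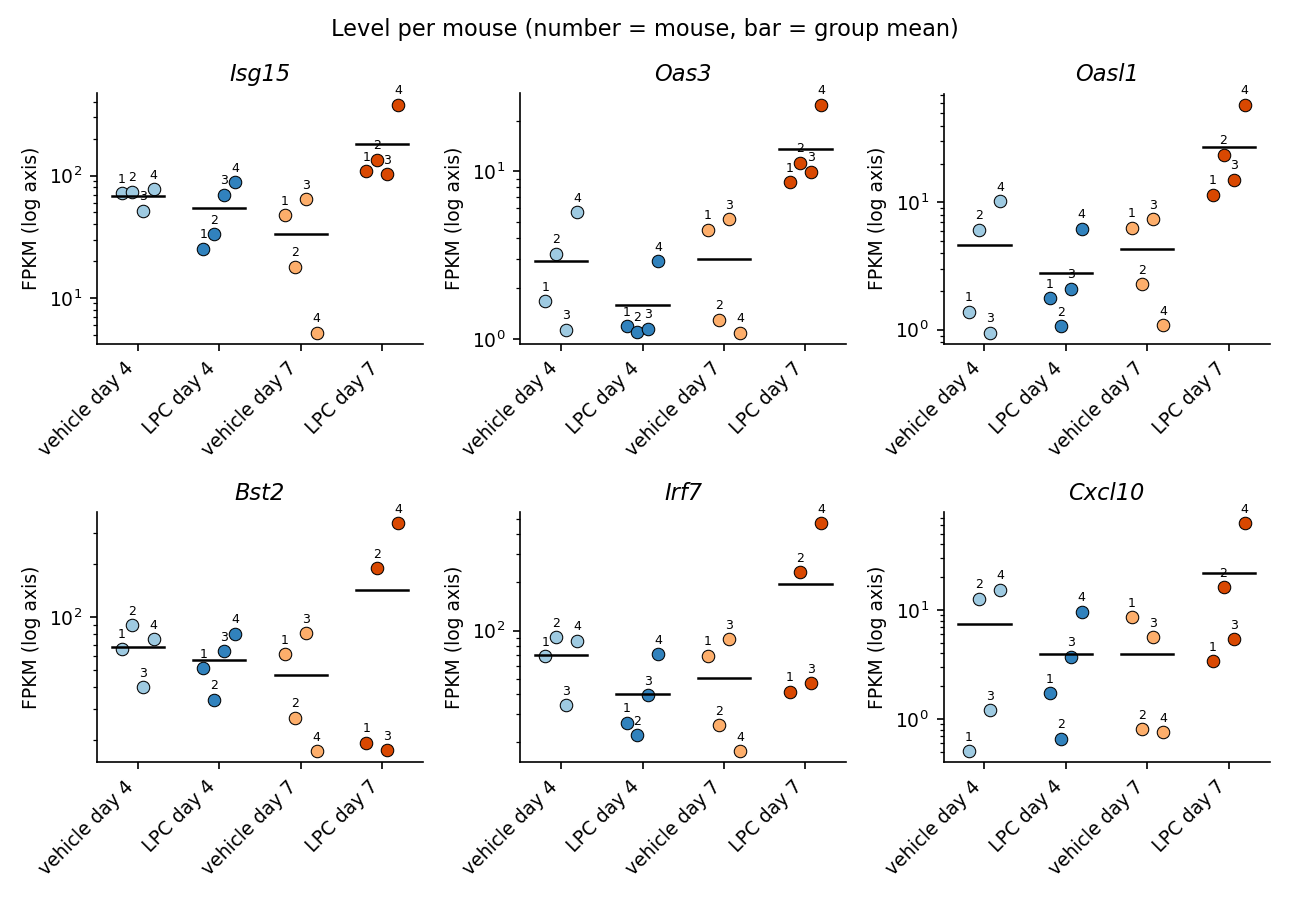
Level of 6 members in each mouse, in FPKM on a log axis, by group; the number beside a point is the mouse and the black bar the group mean. Isg15, Oas3 and Oasl1 do not overlap between LPC and vehicle on day 7, whereas in Bst2, Irf7 and Cxcl10 LPC day 7 mice 1 and 3 sit among the vehicle mice.

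Counted over the members in normalised CPM (counts scaled to library size), LPC day 7 mice 2 and 4 each exceeded every vehicle day 7 mouse in 35 of 35 genes. Mouse 3 did so in 17 genes and mouse 1 in 5. Thus 5 members (14.3%) did not overlap between the groups, Isg15, Oas3, Oasl1, Rtp4 and Zbp1, beside 5.7% of all genes tested that were higher with LPC without overlap. In FPKM, which lack the correction for library composition, Rtp4 and Zbp1 overlapped. Within LPC day 7, mouse 4 was above mouse 2 and mouse 2 above mice 1 and 3 for 34 members. The ratio of mouse 4 to mouse 1 ran from 2.07 in Trim25 through 2.90 in Oas3 to 36.8 in Ifi44.

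Mice of the other groups also differed in these genes as a block. Vehicle day 7 mice 1 and 3 were both above mice 2 and 4 for 32 of 35 members, and mouse 4 was the lowest of its group for 33. In LPC day 4, mouse 4 was the highest for all 35 and mouse 2 the lowest for 30. In vehicle day 4, mouse 4 was the highest for 27 and mouse 3 the lowest for 27. The median standard deviation between mice of a group, in log2 CPM, was 0.704 with vehicle and 0.826 with LPC on day 4 over the members, and 1.09 and 1.10 on day 7. Over all genes tested it was 0.297 and 0.237 on day 4 and 0.276 and 0.384 on day 7. The steadiest members were Irf9, Ifi35 and Trim25, with the smallest standard deviation of the members in at least 1 group (0.185 for Irf9 in vehicle day 4).

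On day 4, no member passed the test between LPC and vehicle, beside 0.139% of all genes that changed. At an unadjusted p under 0.05 the count was also 0 by edgeR, beside 19.2% of all genes, and DESeq2 called 0. The fitted level was lower with LPC for 27 members and higher for 8, with a median log2 fold change of -0.32 and a range from -1.10 (Cmpk2) to 0.49 (Stat2). This direction turned with the level of skeletal muscle markers as a covariate, where all 35 were higher with LPC (median 1.23, no call). On day 4 the mean log2 CPM of those markers was 6.86 to 10.7 with vehicle and 3.48 to 6.82 with LPC, without overlap. Muscle level and LPC therefore cannot be told apart on day 4 in that fit. Without vehicle day 4 mouse 4, 18 members were higher and 17 lower (median 0.00136), and without LPC day 4 mouse 4 all 35 were lower (median -0.96). No member separated the groups without overlap, beside 16.1% of all genes. LPC day 4 mouse 4 stood above every vehicle day 4 mouse in 18 members, while mouse 2 stood below every one in 23. The widest of these in an abundant gene was Stat2, at 17.6, 15.8, 18.0 and 50.8 FPKM in LPC mice 1 to 4 and 14.8, 20.1, 17.6 and 22.2 with vehicle.

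**Figure D4:**
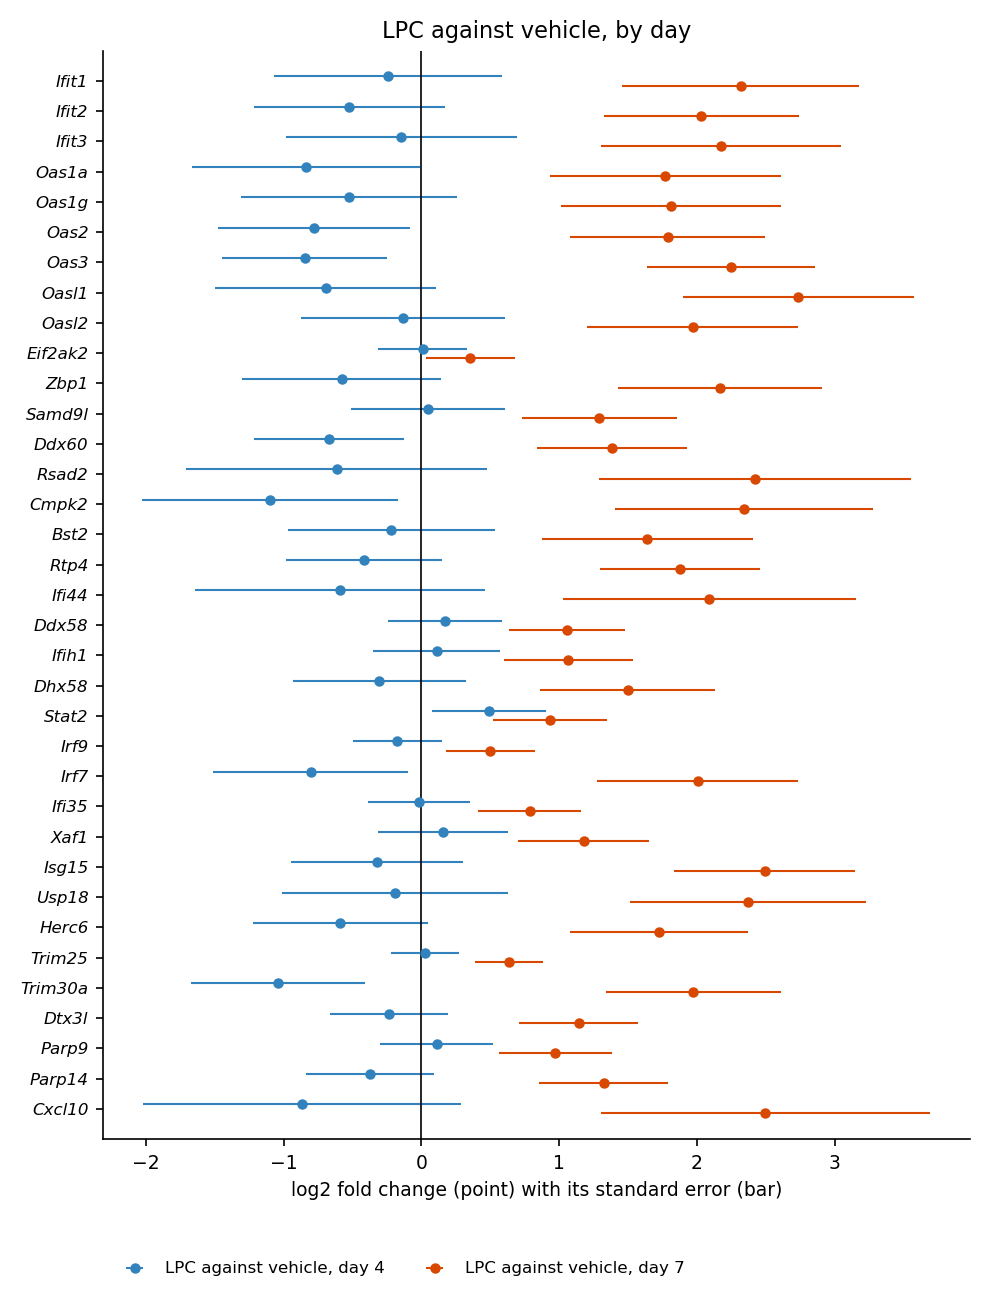
Log2 fold change of LPC against vehicle (points) with its standard error (bars) for 35 members in the order of their roles, on day 4 (blue) and day 7 (orange). All 35 day 7 points lie to the right of 0, and the day 4 points spread from -1.10 to 0.49.

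The difference between the day 7 and day 4 effects of LPC was tested directly. It was positive for all 35 members, with a median of 2.31 on the log2 scale against 0.00065 over all genes, but no member passed by edgeR, beside 0% of all genes. At an unadjusted p under 0.05 there were 17 members, beside 10.8% of all genes with a positive difference, and DESeq2 called 4 (Isg15, Oas3, Oasl1 and Trim30a), beside 2.92%. With the muscle covariate the median fell to 0.371 and 8 members turned negative, and without LPC day 7 mouse 4 it was 1.54 with 1 negative. The covariate fit includes the day 4 effect, where muscle level and LPC cannot be told apart. Oas3 had the smallest unadjusted p (0.00248; difference 3.09, SE 0.85, adjusted p = 0.159). This difference and the comparisons of single days use the same libraries and are not independent of each other.

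From day 4 to day 7 with LPC, 11 members rose and none fell, which is 31.4% of the members, beside 6.87% of all genes that rose and 4.13% that fell. The rise was called in 6 of 13 genes of viral RNA and translation control (Ifit2, Oas2, Oas3, Oasl1, Zbp1, Ddx60), in 1 of 5 membrane and nucleotide effectors (Cmpk2) and in 4 of 8 of the Isg15 and ubiquitin genes (Herc6, Trim30a, Dtx3l, Parp14). None of the 3 sensors, 5 transducers or the chemokine passed. All 35 fitted changes were positive, with a median of 1.86 against 0.0313 over all genes. With the muscle covariate the median was 0.876 and 5 members turned negative, without LPC day 7 mouse 4 it was 1.23 with 3 negative, and without LPC day 4 mouse 4 it was 2.83. LPC day 7 shares its libraries with the comparison above, so the counts are not independent.

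Trim30a, a restriction factor and regulator of Toll-like receptor signalling, went from 1.49, 1.25, 0.90 and 2.96 FPKM in LPC day 4 mice to the day 7 values above. The groups did not overlap, and the log2 fold change was 3.22 (SE 0.67, adjusted p = 0.0122). Oas3 was at 1.19, 1.10, 1.15 and 2.90 FPKM on day 4 and also separated from day 7 (log2 fold change 3.22, SE 0.64, adjusted p = 0.010). These 2 genes kept their call with each single mouse of either LPC group left out (highest adjusted p 0.046 for Trim30a and 0.0409 for Oas3). The other 9 each lost it in at least 4 of those 8 fits.

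Cmpk2 gave the largest fitted rise, from 0.28, 0.37, 0.85 and 2.54 FPKM on day 4 (log2 fold change 3.46, SE 0.99, adjusted p = 0.0387). Day 4 values were 1.76, 1.06, 2.10 and 6.22 FPKM for Oasl1 (3.38, SE 0.86, adjusted p = 0.0266) and 4.16, 2.90, 4.66 and 12.1 FPKM for Zbp1 (3.19, SE 0.77, adjusted p = 0.022). For Oas2 they were 2.28, 1.74, 1.59 and 5.84 FPKM (3.00, SE 0.74, adjusted p = 0.0239). In all of these LPC day 4 mouse 4 was the highest of its group, and in normalised counts it stayed below every LPC day 7 mouse.

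The remaining called members overlapped between the days. Ddx60 had 0.72, 0.37, 0.55 and 1.52 FPKM on day 4, and mouse 4 exceeded LPC day 7 mouse 1 (log2 fold change 2.39, SE 0.57, adjusted p = 0.0199). Ifit2 had 1.71, 1.49, 1.81 and 4.05 FPKM (2.58, SE 0.73, adjusted p = 0.0367) and Herc6 0.74, 0.55, 0.66 and 2.24 FPKM (2.28, SE 0.66, adjusted p = 0.0402). Parp14 had 3.00, 1.94, 2.56 and 7.6 FPKM (1.69, SE 0.47, adjusted p = 0.0356) and Dtx3l 2.55, 2.23, 2.98 and 5.40 FPKM (1.51, SE 0.44, adjusted p = 0.04). Isg15 did not overlap between the days but missed the threshold (1.86, SE 0.64, adjusted p = 0.0719), as did Irf7, with 26.6, 22.3, 39.6 and 71.4 FPKM on day 4 (2.39, SE 0.74, adjusted p = 0.0508). In all, 7 members were higher on day 7 without overlap, beside 8.85% of all genes. The count of 11 fell to 2 without LPC day 7 mouse 4, to 5 without mouse 2 and to 2 without LPC day 4 mouse 1, 2 or 3, and it rose to 19 without LPC day 4 mouse 4. Over the 16 fits that leave out 1 library, 2.0% to 9.79% of all genes rose. DESeq2 called 22 members, beside 11.9% of all genes, and edgeR on the LPC libraries alone 5, beside 4.27%.

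With vehicle, no member changed from day 4 to day 7, beside 0% of all genes tested by edgeR, and none had an unadjusted p under 0.05, beside 13.0% of all genes. DESeq2 also called none. The fitted change was positive for 14 members and negative for 21, from -0.96 (Isg15) to 0.67 (Ifi44), with a median of -0.04. The sign of this median depended on the fit, from -0.376 without vehicle day 7 mouse 3 to 0.413 with the muscle covariate. Irf9 was the 1 member without overlap, lower on day 7, beside 6.21% of all genes that separated the days in either direction. Irf9 was at 31.5, 36.1, 28.9 and 33.5 FPKM on day 4 and 22.3, 25.2, 24.0 and 17.2 on day 7 (log2 fold change -0.51, SE 0.32, adjusted p = 0.522).

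Messages of the interferons themselves were scarce in every library. Of 21 ligand genes on the list, 14 had a row, and none passed the filter on low counts. All 14 together gave between 0 and 31 counts per library, the highest in LPC day 4 mouse 4. Ifnb1, coding for interferon beta, had 1, 0, 4 and 6 counts in LPC day 4 mice 1 to 4 and 0 in each of the other 12 libraries. The interferon lambda genes Ifnl2 and Ifnl3 had 7.12 and 12.88 counts in LPC day 4 mouse 4 and at most 1.51 in any other library. Ifng reached 6 counts, in LPC day 7 mouse 4, and Ifnk, an interferon of keratinocytes, 3. Ifnz, interferon zeta, had the most over the 16 libraries (39.98) and was found mainly with vehicle, with sums of 21.63 on day 4 and 14.54 on day 7 against 0 and 3.81 with LPC. A count of 0 covers up to 3 counts per library, or 0.145 to 0.181 normalised CPM, so lower levels were not detectable at this depth. Over all 14 ligands, mice 1 to 4 had 7, 5, 5 and 31 counts in LPC day 4 and 2, 2, 6.81 and 9 in LPC day 7. With vehicle they had 5.22, 4, 9.09 and 11.32 counts on day 4 and 16.71, 2.52, 5.31 and 0 on day 7. Any link between these few counts and the member levels was not tested.

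Among 6 interferon receptor genes, 1 rose and 1 fell with LPC on day 7, beside 2.38% of all genes that rose and 1.44% that fell. Ifnar2 was at 23.3, 35.4, 20.8 and 37.9 FPKM with LPC and 16.8, 15.3, 15.9 and 17.9 with vehicle, without overlap (log2 fold change 1.00, SE 0.16, adjusted p = 0.0103). Ifnlr1, the specific chain of the lambda receptor, was at 2.19, 1.78, 2.93 and 1.82 FPKM with LPC and 3.03, 5.0, 3.90 and 5.72 with vehicle, also without overlap (-0.89, SE 0.21, adjusted p = 0.0321). Of 12 JAK-STAT genes, 1 rose and none fell on day 7, beside the same shares of all genes. It was Irf2, at 8.86, 16.7, 8.90 and 22.7 FPKM with LPC and 8.67, 6.83, 9.03 and 7.88 with vehicle (0.89, SE 0.23, adjusted p = 0.0474). From day 4 to day 7 with LPC, 3 receptor genes rose (Ifnar2, Ifngr2 and Il10rb) and Ifnlr1 fell. Of the JAK-STAT genes 3 rose (Ptpn6, Irf1 and Irf2) and none fell. Over all genes 6.87% rose and 4.13% fell.

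Of 20 genes of nucleic acid sensing and interferon induction, none passed on day 7 between LPC and vehicle. Over all genes 2.38% rose and 1.44% fell. From day 4 to day 7 with LPC, 8 of the 20 rose (Tlr7, Tlr8, Tlr9, their chaperone Unc93b1, Irf8, Ikbke, Irak4 and Mavs) and Irak1 fell. The shares of all genes were 6.87% and 4.13%. Tlr7 was at 0.26, 0.40, 0.33 and 0.67 FPKM in LPC day 4 mice and 0.56, 3.34, 0.82 and 3.33 in LPC day 7 mice, and with vehicle at 1.2, 0.32, 1.69 and 1.09 on day 7. LPC day 7 mice 2 and 4, the 2 with the highest member levels, also had the highest Tlr7. This was not particular to Tlr7, as the same mice had the highest Tlr3, Tlr8, Tlr9, Unc93b1 and Irf8. It did not hold for every gene of the list, Irak1 and Tbk1 among the exceptions.

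A further 39 interferon-stimulated genes that are no members were tested as a list. On day 7, 3 rose with LPC (Slfn2, Isg20 and Gbp2) and none fell, beside 2.38% and 1.44% of all genes. The list's median log2 fold change was 1.42. Isg20, an exonuclease, was at 16.5, 25.1, 25.1 and 61.1 FPKM with LPC and 8.27, 3.83, 12.3 and 3.32 with vehicle, without overlap (2.25, SE 0.50, adjusted p = 0.0289). From day 4 to day 7 with LPC 11 rose and none fell, with a median of 1.79, beside 6.87% of all genes that rose and 4.13% that fell. Of 13 tested genes that respond more to interferon gamma, none passed on day 7 between LPC and vehicle. Over all genes 2.38% rose and 1.44% fell. The median log2 fold change of the 13 on day 7 was 1.16. From day 4 to day 7 with LPC, 7 of the 13 rose, Cxcl9, Ubd and Iigp1 among them, while 4, the class II genes H2-Aa, H2-Ab1, H2-Eb1 and their activator Ciita, fell. The shares of all genes were again 6.87% and 4.13%.

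Markers of other cell types moved with the same mice. LPC day 7 mice 1 to 4 had a mean level of the 35 members of 4.46, 5.99, 4.94 and 7.03 log2 CPM. In the same order, the mean over 14 macrophage and monocyte markers was 4.77, 7.15, 4.67 and 6.65, and their summed level 682, 2024, 582 and 1243 FPKM, against 379 to 926 in vehicle day 7. Adgre1, a defining macrophage marker, was at 1.43, 26.5, 1.42 and 27.6 FPKM. In FPKM, 13 of the 14 were higher in both mice 2 and 4 than in mice 1 and 3. The exception was Cd14, a co-receptor for lipopolysaccharide, at 464, 160, 362 and 117 FPKM, which made up most of the summed level in mice 1 and 3. None of the 14 passed between LPC and vehicle on day 7, and 7 of 14 rose from day 4 to day 7 with LPC, beside 6.87% of all genes. By the mean and by the summed level the macrophage markers were highest in mouse 2, and the members were highest in mouse 4. Single markers differed in FPKM: Adgre1, Ly6c2, Ccr2 and Fcgr1 were highest in mouse 4. Cd14 was highest in mouse 1, and the other markers of the list in mouse 2. The neutrophil markers had the opposite order, with a summed level of 957, 401, 895 and 238 FPKM in LPC day 7 mice 1 to 4. Of the 9 tested, 3 rose with LPC on day 7, beside 2.38% of all genes.

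Skeletal muscle and fat also differed between the pieces of ear. The summed level of 16 muscle markers was 578, 9132, 219 and 10780 FPKM in LPC day 7 mice 1 to 4, against 1511 to 6302 in vehicle day 7, 201 to 1900 in LPC day 4 and 2420 to 23080 in vehicle day 4. The 9 adipocyte markers summed to 53.3, 839, 185 and 3415 FPKM in LPC day 7. With the muscle level as a covariate, 20 members were called between LPC and vehicle on day 7, beside 4.84% of all genes that rose in that fit. From day 4 to day 7 with LPC, 6 were called (Ddx60, Oas2, Oas3, Oasl1, Trim30a and Zbp1), beside 3.8%. The 8 markers of differentiated keratinocytes summed to 2296 to 4607 FPKM in LPC day 7 and 10380 to 15950 in vehicle day 7. Of the 8, 6 fell, beside 1.44% of all genes. Siglech, which defines plasmacytoid dendritic cells, was at most 0.60 FPKM in any library, and at 0, 0.52, 0.12 and 0.58 FPKM in LPC day 7 mice 1 to 4. The mean over the 10 markers of that cell type was 2.08, 3.62, 2.18 and 3.21 log2 CPM in the same mice. Mice 2 and 4 were again the higher, as they were for 6 of the 10 in FPKM. Among the 6 was Cox6a2, at 206 FPKM in mouse 4, 163 in mouse 2 and 3.23 in mouse 3, with mouse 1 between mice 2 and 3. That is the order of the summed muscle markers, and both were highest of all libraries in vehicle day 4 mouse 1. The mean therefore cannot be read as that cell type alone, and its order without Cox6a2 was not tested. The summed level of the 10 markers, 1027 to 1455 FPKM in LPC day 7, did not follow the order of the mean. It was mostly Ly6d, which basal keratinocytes also express and which was at 783 to 1432 FPKM there. The 8 T and NK cell markers with a row were low and also followed the members: they summed to 3.04, 10.6, 2.29 and 10.1 FPKM in LPC day 7 mice 1 to 4, against 5.07 to 10.6 in vehicle day 7, and 6 of the 8 were higher in mice 2 and 4 than in mice 1 and 3. Of these, Cd3g, a chain of the T cell receptor complex, was at 0.65, 2.34, 0.15 and 2.86 FPKM, and Nkg7, a granule protein of cytotoxic cells, at 0.13, 1.65, 0 and 3.2. The order was not limited to immune cells, muscle and fat. In FPKM, 6 of 7 fibroblast markers and 5 of 6 endothelial markers were also higher in mice 2 and 4 than in mice 1 and 3. Of 7 basal keratinocyte markers, 5 were lower in mice 2 and 4 and 1 was higher. The part of cell composition in the member levels was otherwise not tested.

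**Figure D5:**
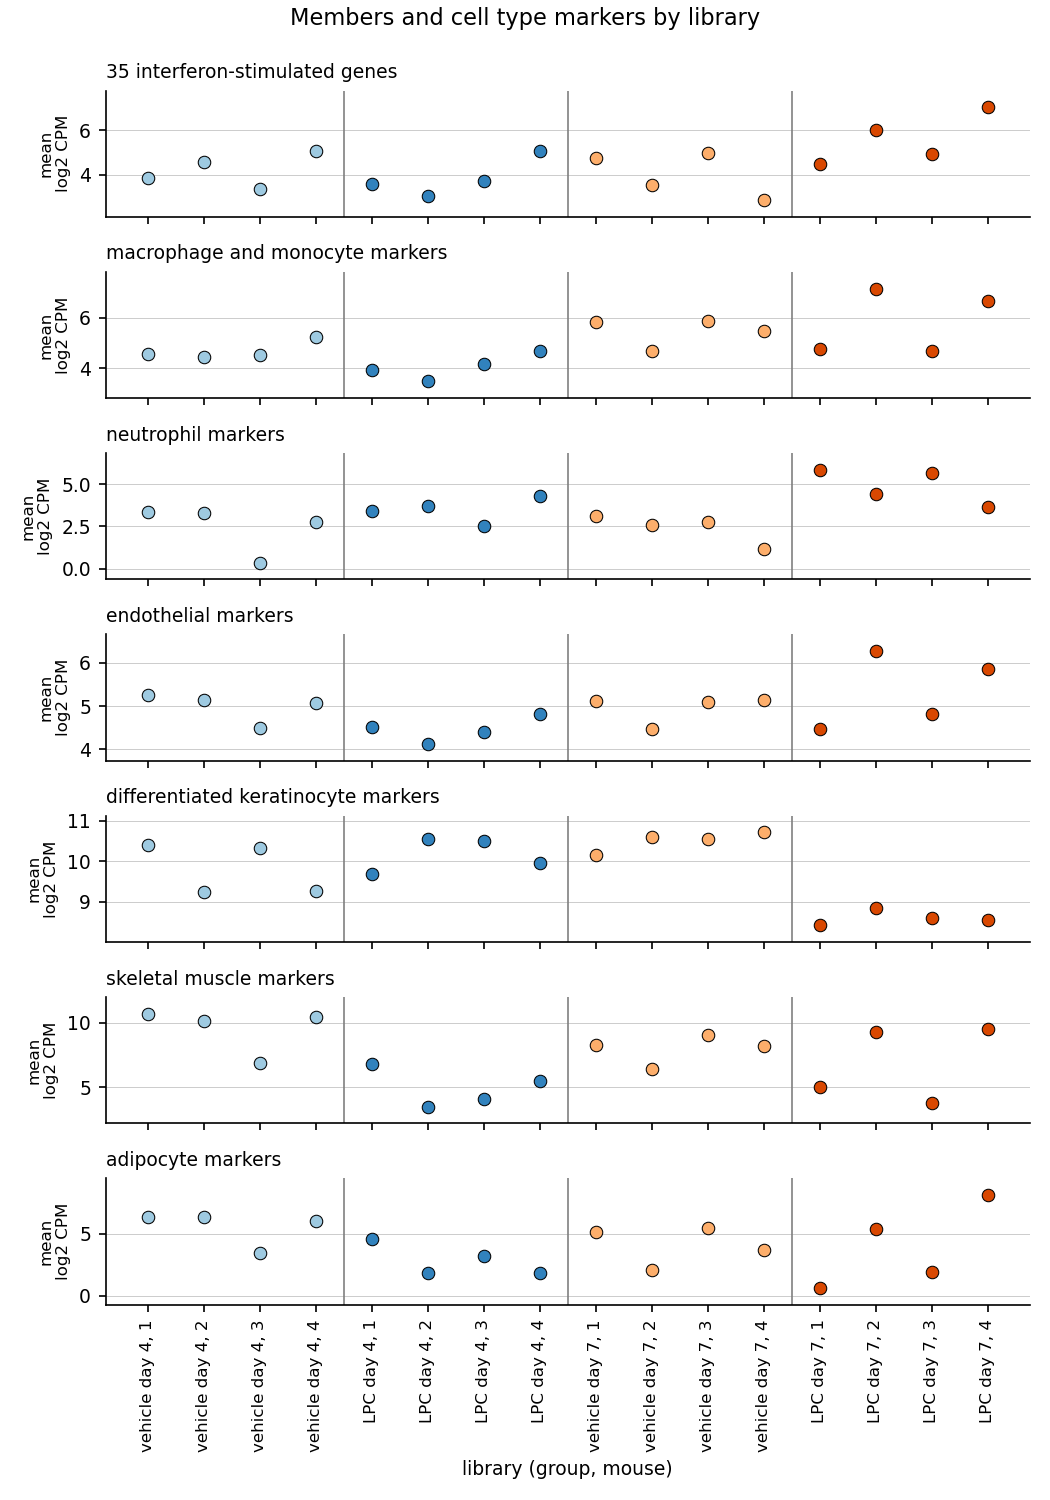
Mean log2 CPM of the 35 members and of markers of 6 cell types (panels) in each of the 16 libraries (points, coloured and divided by group). In LPC day 7, mice 2 and 4 are above mice 1 and 3 for the members and for the macrophage, endothelial, muscle and adipocyte markers, and below them for the neutrophil markers.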

How the data were processed

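Per the labels' protocols, RNA extracted with TRIpure was sequenced on a BGISEQ-500, aligned to GRCm38 with Bowtie2 and quantified by RNA-Seq by Expectation Maximization, with no versions named. Expected counts (estimated counts per gene, not normalised) and FPKM were both made by the authors with that quantification and deposited for each sample, with Entrez identifiers and symbols. The members and the lists of other genes were chosen with earlier results of these data known.

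The expected counts, rounded to integers, were tested with edgeR 4.0.16 (quasi-likelihood, TMM scaling, filterByExpr) on all 16 libraries with a mean for each group; p-values were adjusted over 15782 genes and called below 0.05. FPKM give levels; log2 CPM use a prior count of 2. Symbols matched RefSeq (GRCm38.p6) by Entrez identifier. Members named with values in every mouse were those called in any comparison and, in each role, the one with the highest mean FPKM and the one with the smallest p between LPC and vehicle. Stat2, Irf9, Usp18, Ifnz and the markers were named after their values were seen. Each library is 1 mouse per the labels, and p-values measure the spread between these mice. File names give other day numbers than the sample titles; days follow the titles. Alternatives were RLE scaling, other filters, DESeq2 1.42.0, limma 3.58.1 (voom with sample weights, or log2 of FPKM plus 0.1 or 1), subsets of libraries and covariates.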

Additional observations from a re-analysis of the deposited data

Results flagged for a closer look

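In a group of 4 mice, a value was singled out when its gap to the nearest mouse took up more of the group's range than Dixon's critical value for 4 samples allows. Among 140 sets of 4 FPKM values, 20 were singled out, and chance gives about 1 in 20. On the log2 scale 9 of the 140 were, which is close to 1 in 20. Each of the 20 in FPKM is the highest of its group and from a mouse numbered 4. In LPC day 4 mouse 4 there were 14, with the next mouse in brackets: Ifit2 at 4.05 FPKM (1.81), Oas2 at 5.84 (2.28), Oas3 at 2.90 (1.19), Oasl2 at 41.7 (11.1), Eif2ak2 at 14.3 (6.74), Samd9l at 6.79 (2.58), Rsad2 at 9.84 (1.52), Ifih1 at 11.8 (4.72), Dhx58 at 8.82 (3.35), Stat2 at 50.8 (18.0), Ifi35 at 49.5 (30.1), Xaf1 at 31.2 (15.1), Herc6 at 2.24 (0.74) and Trim25 at 19.8 (10.7). In vehicle day 4 mouse 4 there were 4: Ifit2 at 7.54 FPKM (2.28), Samd9l at 6.38 (2.50), Ifih1 at 9.78 (5.30) and Herc6 at 3.34 (1.28). In LPC day 7 mouse 4 there were 2: Oas3 at 24.8 FPKM (11.2) and Isg15 at 379 (135). The members vary together between mice, so these are not independent events.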

How the results depend on the processing

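The count of members called between LPC and vehicle on day 7 was 1 by the reported fit. It was 0 with no low-count filter, with the replicate block, with only the libraries compared and with limma-voom using sample weights. The count was 2 on either FPKM scale, 13 with DESeq2 and 20 with the muscle covariate. Leaving out single mice gave 0 to 1. Where it was 1, without vehicle day 4 mouse 3 or mouse 4, the member called was Oas3 and not Isg15. From day 4 to day 7 with LPC, the count of 11 was 5 with only the libraries compared, 6 with the muscle covariate, 9 with the replicate block and 22 with DESeq2, and 2 to 19 with single mice left out. For the difference between the days it was 0, and 4 with DESeq2. On day 4, and from day 4 to day 7 with vehicle, it was 0 under all alternatives run. The cause of these changes was not tested. Among members named for a call, or for the highest mean FPKM or smallest p of their role, 1 log2 fold change changed sign. It was Bst2 from day 4 to day 7 with LPC, at -0.61 with the muscle covariate, of the 2 comparisons with calls. Stat2, Irf9 and Usp18 were not among these members. Over all 35 members, that comparison had 5 negative values with the muscle covariate, 3 without LPC day 7 mouse 4 and 1 on either FPKM scale. The mouse numbers are shared between the groups in the titles, and the correlations over genes of same-numbered mice ran from -0.60 to 0.54 in 24 pairs of libraries. Between the 2 day 4 groups all 4 were positive (0.0994 to 0.54) but not all above 0.1, and 5 of the 8 libraries correlated best with their own number. In the other 5 pairs of groups the signs were mixed and at most 2 of 8 libraries did so. The replicate block therefore pairs mice by number only. With it the median log2 fold change of the members between LPC and vehicle was -0.46 on day 4 and 1.26 on day 7.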
